A study of Homo sapiens with 10 samples.

Results

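The genes described here handle cellular zinc: the metallothioneins of the MT1 and MT2 classes, the SLC30A and SLC39A zinc transporters, and the transcription factor MTF1. They were the rows annotated as protein-coding whose symbol started with SLC30A or SLC39A, was MT1 or MT2 followed by a single letter, or was MTF1. This gave 34 of the 60603 rows, and of the 19975 protein-coding rows: 9 metallothioneins, 10 SLC30A genes, 14 SLC39A genes and MTF1. RNA was measured by mRNA-seq in NB4, a cell line from acute promyelocytic leukemia, in a pair of experiments. The GSE1 knockdown experiment has 6 libraries from cells harvested 48 h after lentiviral transduction, 2 each for the empty pLKO.1 puro vector (EV) and for this vector with the shRNA shA1 or shB2 against GSE1. The LSD1 inhibition experiment has 4 libraries after 24 h, 2 with DMSO, the solvent control, and 2 with 2 µM of the LSD1 inhibitor MC2580. All groups are therefore a single cell line, and all cultures of the knockdown experiment, controls included, were transduced with a lentiviral vector.

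Zinc is held at a very low free concentration in the cytosol. SLC39A (ZIP) proteins move zinc into the cytosol from outside the cell or from organelles, and SLC30A (ZnT) proteins move it out of the cytosol, across the plasma membrane or into organelles. Metallothioneins are small cysteine-rich proteins that bind zinc and copper, and MTF1 is the zinc-sensing factor that binds metal response elements in front of metallothionein genes and SLC30A1. Myeloid cells also use metallothioneins and ZIP proteins when they withhold metals from microbes.

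The value available for each gene was the base mean, taken as the authors' average over all libraries of an experiment of read counts divided by size factors. In the knockdown experiment its label names the hairpin shB2 alone. The sample descriptions assign these values to EV, shA1 and shB2, so the pooling of all libraries is assumed there. A base mean pools control and treated cells, so it gives the level of a gene in an experiment and no difference between EV and a hairpin or between DMSO and MC2580. No value per library was used, so no spread, interval or test accompanies these values, and the depth of each library is unknown here. In bulk RNA, fewer cells expressing a gene and less RNA per cell cannot be told apart. The base means of all rows sum to 40543130 in the knockdown experiment and 41201112 in the inhibition experiment. Markers of promyelocytes were present, with 5 of 6 reaching a base mean of 10 in each experiment and MPO, the myeloperoxidase of the primary granules, at 506765 and 824818. ELANE, the granule elastase, was the exception at 1.10 and 3.87. Of 15 markers of T, B, erythroid, epithelial and fibroblast cells, 9 reached 10 in the knockdown experiment and 7 in the inhibition experiment, led by KRT18 at 906 and 668 and CD3D at 866 and 869. Of all protein-coding rows, 63.1% and 63.0% reached 10, so reaching it does not by itself mark a cell type. Of the erythroid markers, HBA1 was listed at 0 in both experiments, and HBB was at 11.7 in the knockdown experiment and 0 in the inhibition experiment.

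The metal response element has the core TGCACNC or TGCGCNC, where N is any base. It was searched on both strands of the RefSeq promoter windows of GRCh38.p14, which run from 250 bases before to 50 bases after a gene's start, and matches on opposite strands were counted even where they overlapped. Of 35116 windows of 300 bases, 29.6% held at least 1 match, 8.60% at least 2, 2.30% at least 3, 0.601% at least 4 and 0.162% at least 5. For the members, 26 of 34 had a window, 35 windows in all, and MT1A, MT1E, MT1F, MT1G, MT1M, SLC30A8, SLC39A4 and SLC39A14 were not searched. The windows of the 4 metallothioneins with an entry are shown because 2 of these genes were expressed and 2 were listed at 0. Capitals mark the core on either strand, and each sequence reads 5′ to 3′ along its gene. They lie on the plus strand at chr16:56608334-56608633 for MT2A, chr16:56682220-56682519 for MT1X, chr16:56669564-56669863 for MT1H and chr16:56651636-56651935 for MT1B.
MT2A: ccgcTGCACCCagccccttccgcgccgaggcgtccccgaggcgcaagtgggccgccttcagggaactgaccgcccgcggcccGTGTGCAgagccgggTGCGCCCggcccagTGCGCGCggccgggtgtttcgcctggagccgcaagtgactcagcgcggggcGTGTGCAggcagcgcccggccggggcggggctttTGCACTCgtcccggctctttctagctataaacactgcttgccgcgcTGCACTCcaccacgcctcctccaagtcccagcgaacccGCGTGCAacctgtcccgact
MT1X: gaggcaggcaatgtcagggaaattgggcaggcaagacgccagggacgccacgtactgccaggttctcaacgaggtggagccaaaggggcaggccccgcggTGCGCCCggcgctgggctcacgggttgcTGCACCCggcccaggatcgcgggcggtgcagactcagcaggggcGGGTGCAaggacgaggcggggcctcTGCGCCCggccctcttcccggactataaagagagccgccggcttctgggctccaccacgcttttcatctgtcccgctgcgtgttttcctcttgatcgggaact
MT1H: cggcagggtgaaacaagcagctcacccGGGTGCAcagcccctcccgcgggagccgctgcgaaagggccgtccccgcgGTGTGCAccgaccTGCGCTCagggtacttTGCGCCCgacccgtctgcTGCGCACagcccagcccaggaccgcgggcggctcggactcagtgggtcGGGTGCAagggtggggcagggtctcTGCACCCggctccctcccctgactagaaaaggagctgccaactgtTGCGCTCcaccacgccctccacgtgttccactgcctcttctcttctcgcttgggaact
MT1B: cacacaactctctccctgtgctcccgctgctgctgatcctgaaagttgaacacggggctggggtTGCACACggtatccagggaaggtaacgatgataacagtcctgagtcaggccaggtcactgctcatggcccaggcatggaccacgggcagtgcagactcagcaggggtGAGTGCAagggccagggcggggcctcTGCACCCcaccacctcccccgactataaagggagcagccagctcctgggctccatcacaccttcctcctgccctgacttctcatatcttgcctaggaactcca

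MT2A and MT1H each held 8 matches, MT1X held 4 and MT1B held 3. Their positions were alike in part. A match began 53 bases before the start in MT1X, MT1H and MT1B, and 54 bases before it in MT2A. On the opposite strand, a match began 78 bases before the start in MT1X and MT1H and 79 in MT1B, and the nearest in MT2A began 88 bases before it. MT2A and MT1H each had a match beginning 8 bases before the start. MT1H, with as many matches as MT2A, was listed at 0 in both experiments. MT1H and MT1B were added after their values were seen, and the detected MT1E, MT1F and MT1G had no window. Whether level follows the number of matches therefore cannot be judged here. A match is a run of letters and not a measured binding site.

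Among the transporters, SLC30A1, the zinc exporter of the plasma membrane, held 2 matches, and it is shown for that reason. Such a count was not particular to it, since 8.60% of all windows held at least 2. SLC30A3 and SLC30A2, both below the minimum for detection, held 2 and 3 in a window and are not shown. The other windows shown belong to the most abundant transporter of each family by base mean, SLC39A1 and SLC30A9, and hold none. SLC30A1 lies on the minus strand at chr1:211579112-211579411, SLC39A1 on the minus strand at chr1:153968135-153968434 and SLC30A9 on the plus strand at chr4:41990280-41990579.
SLC30A1: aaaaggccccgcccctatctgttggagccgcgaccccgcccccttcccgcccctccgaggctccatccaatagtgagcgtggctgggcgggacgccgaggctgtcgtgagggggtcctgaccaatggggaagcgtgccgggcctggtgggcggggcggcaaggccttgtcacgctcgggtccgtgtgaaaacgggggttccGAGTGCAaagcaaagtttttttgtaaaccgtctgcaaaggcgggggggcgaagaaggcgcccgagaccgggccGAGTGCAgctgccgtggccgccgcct
SLC39A1: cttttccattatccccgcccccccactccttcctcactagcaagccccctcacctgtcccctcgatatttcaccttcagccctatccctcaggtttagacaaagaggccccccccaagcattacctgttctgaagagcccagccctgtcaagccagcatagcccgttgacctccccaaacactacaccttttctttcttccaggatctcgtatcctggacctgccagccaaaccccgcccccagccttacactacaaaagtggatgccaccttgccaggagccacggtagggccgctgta
SLC30A9: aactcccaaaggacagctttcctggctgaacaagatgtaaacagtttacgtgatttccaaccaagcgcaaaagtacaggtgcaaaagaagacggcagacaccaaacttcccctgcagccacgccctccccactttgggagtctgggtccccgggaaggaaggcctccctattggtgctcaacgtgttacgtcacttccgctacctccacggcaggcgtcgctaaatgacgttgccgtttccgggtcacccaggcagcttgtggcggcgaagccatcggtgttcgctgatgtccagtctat

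Both matches of SLC30A1 had the same letters, GAGTGCA as read along the gene, and began 49 bases before and 25 bases after the start. A further window of SLC39A1, at another annotated start, held 1 match. Of the 9 SLC30A genes with a window, 5 held a match in at least 1 of their windows, and the highest number was 3, in SLC30A2, which was listed at 0. Of the 12 SLC39A genes with a window, 7 held a match, never more than 1 in a window. Several genes had more than 1 window, so these counts of genes cannot be set against the 29.6% of single windows with a match. The share of all genes with a match was not computed, so the counts do not show that matches are frequent in these families. The window of MTF1 held none, which says only that these letters are not in it.

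With 10 as the lowest base mean for detection, 22 of 34 members were detected in the knockdown experiment and 23 in the inhibition experiment. These are 64.7% and 67.6% of the members, beside 63.1% and 63.0% of all protein-coding rows. The member that made the difference was SLC39A5, a ZIP protein of intestine and pancreas, at 8.49 and 10.8. Of the detected members, the median base mean was 1269 in the knockdown experiment and 1039 in the inhibition experiment, where the medians of all detected protein-coding rows were 1087 and 1003. The members together held 0.0906% and 0.0911% of the summed base means. The plot of base means by member shows the detected and the undetected genes of each family.

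**Figure D1:**
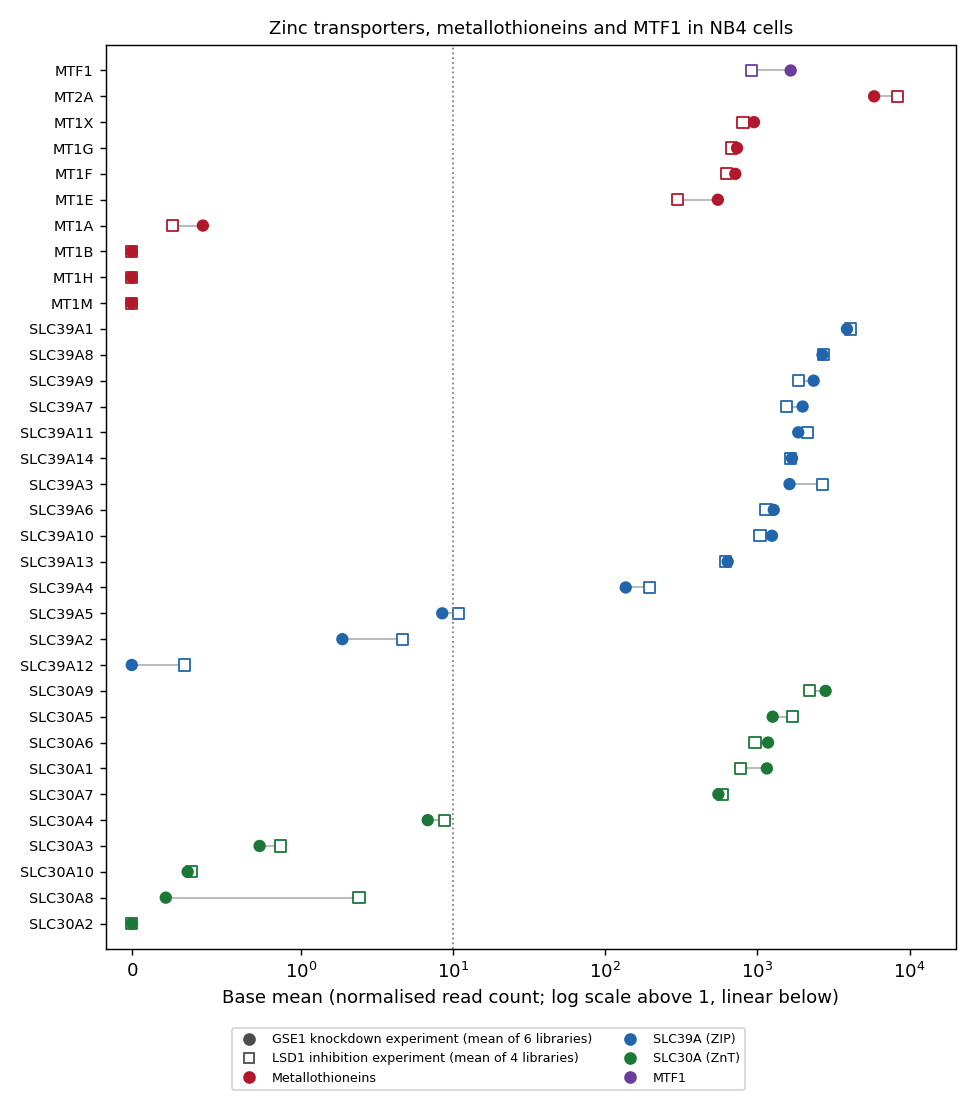
Base mean of each of the 34 members (horizontal axis, normalised read count, logarithmic above 1 and linear below) in the knockdown experiment (filled circles, taken as the mean of 6 libraries) and the inhibition experiment (open squares, mean of 4 libraries), coloured by family, with the minimum of 10 dotted. MT2A is the highest member at 5839 and 8313, and 4 members, MT1B, MT1H, MT1M and SLC30A2, are at 0 in both.

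Expression within the metallothionein family was carried by 5 of its 9 members, and MT2A, the main metallothionein of most human tissues, was by far the most abundant. MT2A had a base mean of 5839 in the knockdown experiment and 8313 in the inhibition experiment. It held 66.5% of the family's summed base means of 8786 in the former and 77.6% of 10711 in the latter. The 4 detected MT1 genes ranged from 549 to 948 in the knockdown experiment and from 297 to 803 in the inhibition experiment. MT1X was at 948 and 803, MT1G at 734 and 674, and MT1F at 715 and 624. MT1E was the lowest of these at 549 and 297, and its share of the family was 6.25% in the knockdown experiment and 2.77% in the inhibition experiment. MT1A was listed at 0.420 and 0.239, and MT1B, MT1H and MT1M were listed at 0 in both experiments. The base mean of MT2A was 1.98 times that of all MT1 genes together in the knockdown experiment and 3.47 times in the inhibition experiment. The family total was 0.0217% of all base means in the knockdown experiment and 0.0260% in the inhibition experiment.

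All the metallothionein members lie in a single cluster on chromosome 16, which spans 75.6 kb in hg38 from the start of MT2A at 56608584 to the end of MT1X at 56684196. The detected genes were not neighbours in a block. From the MT2A end of the cluster, MT2A and MT1E were detected, then MT1M, MT1A and MT1B were not, MT1F and MT1G were, MT1H was not, and MT1X at the far end was. MT1H, at 56669814 to 56671129 on the plus strand and listed at 0, lies next to MT1G, at 56666730 to 56668065 on the minus strand with a base mean of 734 and 674. On the other side of MT2A, MT3, known from brain, was listed at 0.549 and 0.377 and MT4, known from stratified epithelium, at 0 in both. Between MT2A and MT1E, the pseudogene MT1L was at 11.1 and 10.2. A long non-coding RNA annotated on the same strand and at the same start as MT1X was listed at 0, and reads over their shared part could be counted to either.

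**Figure D2:**
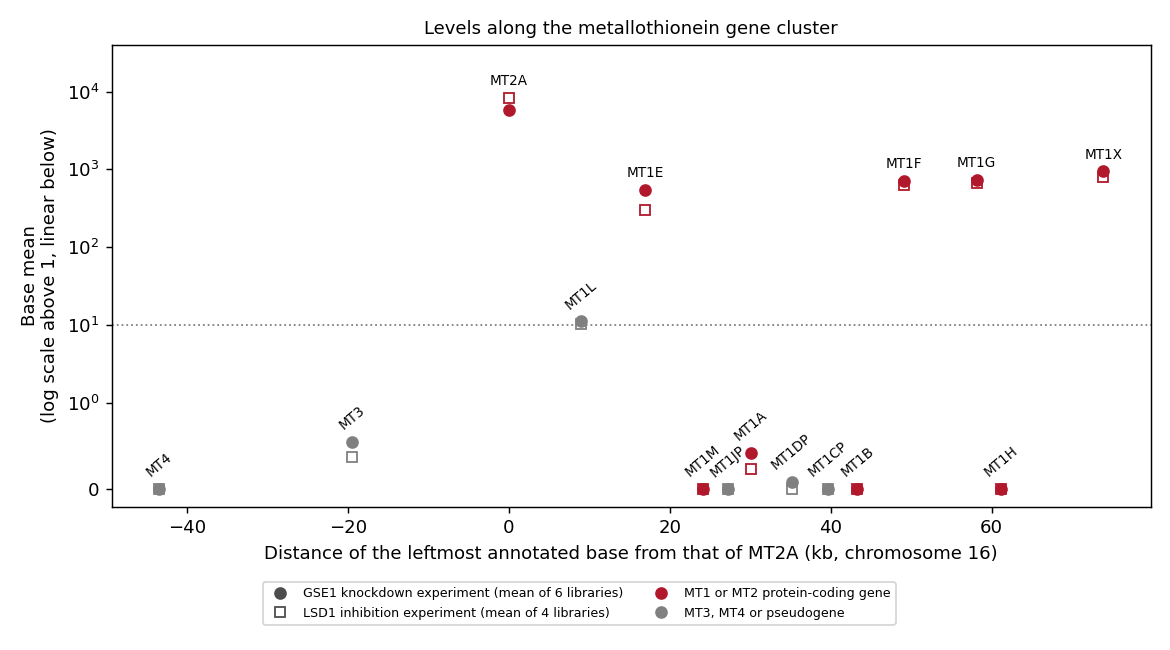
Base mean (vertical axis, normalised read count, logarithmic above 1 and linear below) of each metallothionein gene against its distance from the leftmost base of MT2A in kb, for the knockdown experiment (filled circles) and the inhibition experiment (open squares), with MT1 and MT2 protein-coding genes in red and MT3, MT4 and pseudogenes in grey. MT2A, MT1E, MT1F, MT1G and MT1X stand well above the dotted minimum of 10, the other 4 members lie at or near 0, and the pseudogene MT1L lies at 11.1 and 10.2.

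The metallothioneins are close paralogs, and reads from the stretches they share could be counted to more than a single gene. The coding sequence of the principal transcript in GENCODE 44 was 183 bases in all 9 genes, and over the 36 pairs the identity ran from 88.5% to 95.1% with a median of 91.3%. Between a detected and an undetected member, the longest run of identical bases in their transcripts was 65 bases. Between detected members it reached 96 bases, shared by MT1G and MT1X. Of all windows of 50 bases in a transcript, 19.9% recurred in another of the 9 principal transcripts for MT1G and 16.6% for MT1X. The share was 4.55% for MT2A, 6.12% for MT1F and 0.458% for MT1E. Most windows of each transcript were therefore found in no other of the 9. MT3, MT4 and the pseudogenes, MT1L included, were not compared. MT1G and MT1X had the highest shares, so the split between them may be the least certain, which was not tested. A value of 0 for MT1B, MT1H or MT1M is what the authors' estimate lists and is not proof that no read came from the gene.

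MTF1, the factor through which zinc induces these genes, lies on chromosome 1 and was at 1652 in the knockdown experiment and 913 in the inhibition experiment.

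Of the 14 ZIP genes, 11 were detected in the knockdown experiment and 12 in the inhibition experiment, and the family summed to 19332 and 19666. SLC39A1 (ZIP1), a widely expressed importer of the plasma membrane, had the highest base mean of all transporters at 3869 and 4082. SLC39A8 (ZIP8), which carries zinc, manganese and iron, was the next ZIP gene by base mean at 2674 and 2713. SLC39A14 (ZIP14), its close relative with the same range of metals, was at 1685 and 1650. These 3 importers had nearly the same values in both experiments. SLC39A3 (ZIP3), a plasma membrane importer related to ZIP1, was at 1623 in the knockdown experiment and 2680 in the inhibition experiment. SLC39A6 (ZIP6) was at 1279 and 1137, and SLC39A10 (ZIP10), with which it forms a complex at the plasma membrane, was at 1245 and 1039. The genes for ZIP proteins of internal membranes were detected too. SLC39A7 (ZIP7), which releases zinc from the endoplasmic reticulum, was at 1980 and 1552. SLC39A9 (ZIP9) of the Golgi and plasma membrane was at 2339 and 1857, and SLC39A11 (ZIP11) was at 1853 and 2130. SLC39A13 (ZIP13), a ZIP of the secretory pathway needed in connective tissue, was at 637 and 615. SLC39A4 (ZIP4), the importer of the intestine that is defective in acrodermatitis enteropathica, was at 136 and 195. SLC39A2 was listed at 1.87 and 4.66, and SLC39A12, known from brain, at 0 and 0.312.

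Of the 10 ZnT genes, 5 were detected in both experiments, and the family summed to 6949 and 6230. SLC30A9 (ZnT9), linked to mitochondrial zinc, had the highest base mean at 2804 and 2203. SLC30A5 (ZnT5) was at 1259 and 1694 and SLC30A6 (ZnT6), its partner in a complex that loads zinc into enzymes of the secretory pathway, at 1173 and 963. The complex is thus represented by both of its genes. SLC30A7 (ZnT7), which acts in the same pathway, was at 553 and 587. SLC30A1 (ZnT1) was at 1153 in the knockdown experiment and 771 in the inhibition experiment. The other 5 ZnT genes were below the minimum. SLC30A4 had the highest base mean among them at 6.82 and 8.74, and SLC30A3, the transporter of synaptic vesicles, was at 0.756 and 0.880. SLC30A8, the transporter of insulin granules, was at 0.201 and 2.41. SLC30A10, a manganese exporter, was at 0.330 and 0.354, and SLC30A2 was listed at 0 in both experiments.

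Levels of different genes were compared per kb of the longest spliced transcript in GENCODE 44, and all values in the rest of this paragraph are base means per kb. MT2A was again the highest member, at 6466 in the knockdown experiment and 9206 in the inhibition experiment, above 98.4% and 98.8% of all protein-coding rows. SLC39A1 had rank 2 in both, at 1421 and 1499, and MT1G rank 3, at 1169 and 1073. MT1E had rank 4 in the knockdown experiment at 736 and rank 10 in the inhibition experiment at 398. SLC39A3 had rank 8 at 552 in the former and rank 4 at 911 in the latter. The highest ZnT gene was SLC30A9 at 455 in the knockdown experiment, and SLC30A5 at 424 in the inhibition experiment. MTF1 was at 208 and 115 and SLC30A1 at 196 and 131, toward the lower end of the detected members. The longest annotated transcripts of MT1X and MT1F have 1727 and 1573 bases, against 404 and 425 bases for the canonical ones. With the canonical transcript, a choice made after the data were seen, MT1X was at 2347 in the knockdown experiment, above SLC39A1 at 1898. In the inhibition experiment MT1X was at 1988 with it, just below SLC39A1 at 2003. The order below MT2A therefore depends on the transcript used, and as no spread between libraries was at hand, neighbours in the order cannot be said to differ.

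**Figure D3:**
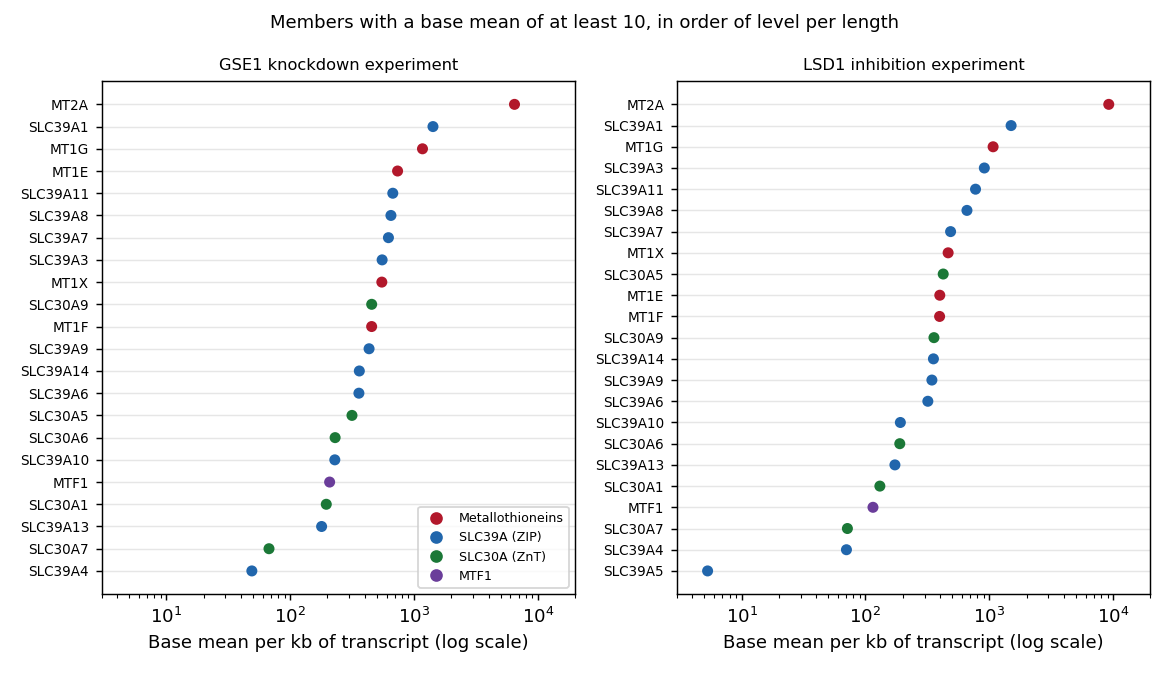
Members that reached a base mean of 10, in order of their base mean per kb of the longest spliced transcript (horizontal axis, logarithmic) in the knockdown experiment (left) and the inhibition experiment (right), coloured by family. MT2A leads both at 6466 and 9206, SLC39A1 and MT1G follow, and SLC39A4, SLC30A7 and, on the right, SLC39A5 are at the low end.

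The experiments were then set side by side by the log2 ratio of the base mean in the knockdown experiment to that in the inhibition experiment, centred on the median of 10916 protein-coding genes, which removed a shift of 0.07. The tables were normalised separately, and transduction, time, control and the mix of treated and control libraries all differ between the experiments and cannot be told apart, so a ratio is a description with no test. Over the 12354 protein-coding genes that reached 10 in each experiment, 3.89% were past 2-fold with the higher base mean in the knockdown experiment and 1.72% past 2-fold with the lower. Of the 22 members compared, 0 were past 2-fold in either direction, and 12 were higher and 10 lower in the knockdown experiment. With scaling by the summed base means, 15 were higher and 7 lower. That scaling moves the ratio of every gene by the same amount, and the share of all genes higher under it was not computed. With centring, the median log2 ratio of the members was 0.08. Over all genes compared it was -0.002, and the 5 and 95 percentiles were -0.75 and 0.90.

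MT1E had the highest log2 ratio of the members at 0.82 and MTF1 the next at 0.79, placing them at the 94.0 and 93.4 percentiles of all genes compared. SLC30A1 came next at 0.51. MT2A went the other way, with a log2 ratio of -0.58 at the 10.1 percentile, whereas the other detected MT1 genes lay close to 0, at 0.17 for MT1X, 0.13 for MT1F and 0.06 for MT1G. The detected metallothioneins thus had ratios of both signs, and whether the family shifted was not tested. With all members summed, a total held mostly by MT2A, the log2 ratio was -0.35, and with the MT1 genes alone it was 0.23. The ZnT genes had log2 ratios from -0.50 for SLC30A5 to 0.51 for SLC30A1. The ZIP genes had log2 ratios from -0.79 for SLC39A3, at the 4.11 percentile, to 0.28 for SLC39A7. Of the 11, 7 were negative, against 5 without centring and 4 with scaling by the summed base means. These choices move all genes alike, and the share of all genes that were negative was not computed. At 1.5-fold, 4 members were past the limit, MT1E and MTF1 with the higher and SLC39A3 and SLC39A4 with the lower base mean in the knockdown experiment, where 11.7% and 9.94% of all genes compared were past it in these directions. Without centring, SLC39A4 was at -0.52 and no longer past it, and with scaling by the summed base means it was at -0.50, while SLC30A1 was past it at 0.60. SLC39A4, at -0.59, lay just past that limit and MT2A, at -0.58, just short of it. The granule genes MPO, PRTN3, CTSG and AZU1 had log2 ratios of -0.77, -0.86, -0.75 and -1.40, so they too were lower in the knockdown experiment, while the myeloid surface marker CD33 was at 0.00. The part of the granule genes in the ratios of MT2A and SLC39A3 was not tested.

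**Figure D4:**
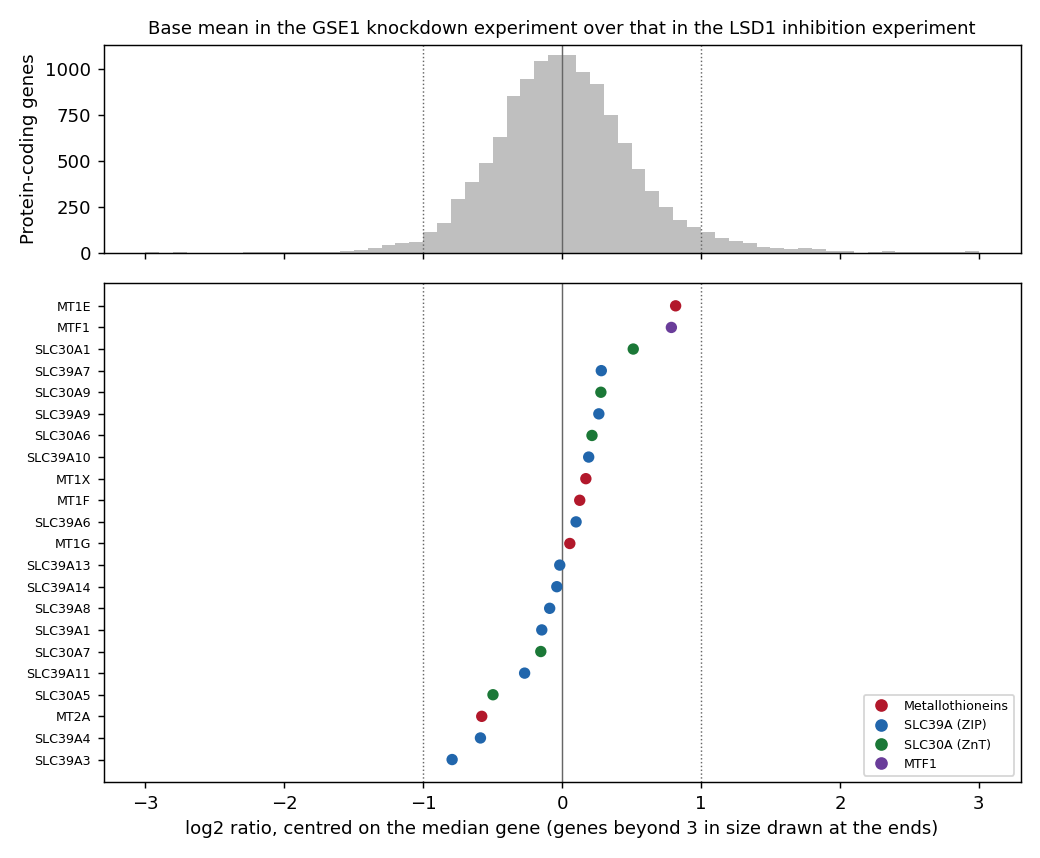
Log2 ratio of the base mean in the knockdown experiment to that in the inhibition experiment, centred on the median gene (horizontal axis), as a histogram of 12354 protein-coding genes (top) and for each of the 22 members that reached 10 in each experiment (bottom, coloured by family). All members lie between the dotted lines at 2-fold, from -0.79 for SLC39A3 to 0.82 for MT1E.

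Of 19 other genes that handle zinc, copper or iron, 15 were detected in both experiments. The ferritin chains, which store iron, were the most abundant, with FTL at 36949 in the knockdown experiment and 37132 in the inhibition experiment and FTH1 at 27924 and 18351. TFRC, the transferrin receptor, was at 15627 and 12393, and SOD1, the cytosolic superoxide dismutase that binds copper and zinc, was at 8432 and 8823. The channel TRPM7, which passes zinc and magnesium, was at 3276 and 2589. The iron importer SLC11A2 was at 2130 and 1470, the copper importer SLC31A1 at 1933 and 1442, and the iron exporter SLC40A1 at 576 and 351. CCS and ATOX1, which carry copper to SOD1 and to the copper pumps, were at 1311 and 1275 and at 1306 and 1223. COX17, a copper chaperone of mitochondria, was at 1294 and 1727. The remaining detected genes, ATP7B, ATP7A, SLC11A1 and SLC31A2, ranged from 59.9 to 331 in the knockdown experiment and from 52.7 to 320 in the inhibition experiment. The 4 below the minimum in both were TMEM163, a zinc transporter of vesicles, at 0.983 and 3.01, GPR39, a zinc-sensing receptor, at 0 and 0.187, and MT3 and MT4, given above.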

How the data were processed

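The deposited tables hold, for each of 60603 genes, signal values that are the authors' DESeq2 base means, taken here as counts divided by size factors and averaged over all libraries of the experiment. The base mean used for the knockdown experiment is labelled with shB2 alone, and its average over all libraries is assumed. Reads had been mapped to hg38 with STAR 2.7 and quantified with RSEM, per the submitters' processing notes. The annotation release is not given in the sources used here. The tables also hold the authors' own comparisons (log2 fold changes, standard errors, Wald statistics, p-values and adjusted p-values), which were not used. Base means are rounded but otherwise as deposited. Genes were matched by identifier to GENCODE 44, which held all 34 members, for position and length. Log2 ratios between experiments needed 10 or more in each table and were centred on genes with 50 or more, and promoter windows are from RefSeq. Computations used Python 3.11.15, numpy 2.4.6 and pandas 2.3.3 and were tested on simulated data. All members that reached 10 were to be named with both values, and promoters shown for the 3 most abundant metallothioneins, of which MT1G had no window, and the most abundant transporter of each family; MT1B, MT1H and SLC30A1 were added after their values were seen. Of the cell type markers, 1 is not reported here. The members and lists were chosen with earlier results of these data known. The labels give the inhibitor as MC280 in titles and as MC2580 elsewhere.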

Additional observations from a re-analysis of the deposited data

How the results depend on the processing

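No paired analysis was possible because the values pool all libraries of an experiment, and for the same reason neither the planned replicate block nor leaving out each replicate was run. The number of detected members was 25 in the knockdown and 26 in the inhibition experiment with a minimum of 1, and 22 in each with a minimum of 50. Of the 10 highest members per kb, 7 to 9 remained among the 10 highest with the other lengths. Over protein-coding rows only, the metallothioneins held 0.0220% and 0.0265%. The number of members past 2-fold between the experiments was 0, and it was 1 with a minimum base mean of 1, the member being SLC39A2 at 1.87 and 4.66, and 4 with a limit of 1.5-fold. It stayed 0 without centring, with scaling by the summed base means and with a minimum of 50. Without centring, SLC39A13 and SLC39A14 changed the sign of their ratio, and with scaling by the summed base means SLC39A8 did too. MT2A had rank 1 among the members with every length tried: coding length, which was taken from GENCODE 44, no length and the canonical transcript, which was added after seeing the data. SLC39A1 ranked 2 in the knockdown experiment and 3 with coding length or the canonical transcript. Values near 0 rest on few reads, and how many could not be computed from the values used here.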

Other observations

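A few members below the minimum differed between the experiments in the base mean they were listed at. SLC30A8, the zinc transporter of insulin granules, stood at 0.201 in the knockdown experiment and 2.41 in the inhibition experiment, and SLC39A2 stood at 1.87 and 4.66. HBB, a hemoglobin chain and no member, was at 11.7 in the knockdown experiment and listed at 0 in the inhibition experiment. Whether single libraries carry these values was not examined, as each is an average over an experiment.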
